A study of Monodelphis domestica with 6 samples.

Results

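Genes of glycolysis, lactate handling, pyruvate entry and the pentose phosphate pathway were compared between neonatal skin fibroblasts (neoSFs) of the opossum *Monodelphis domestica* and the induced pluripotent stem cells (monoiPSCs) reprogrammed from them. The genes are a list of 32 symbols, named by pathway and not by a threshold on measured values. Of these, 26 had a row among the 35665 genes of the count table and are described here. Numbers given with a gene below are its identifier in the table, which also carries the chromosome of the MonDom5 assembly but no position. The symbols HK1, HK2, PFKM, ENO1, PDK4 and TALDO1 had no row and are not analysed here. The main hexokinases and the most widely expressed enolase are therefore missing from the account that follows.

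Glycolysis splits glucose into pyruvate in the cytosol. Lactate dehydrogenase turns pyruvate into lactate, which leaves or enters the cell through monocarboxylate transporters, and the pyruvate dehydrogenase complex instead feeds pyruvate into mitochondria, under the control of inhibitory kinases. The pentose phosphate pathway draws glucose-6-phosphate off for NADPH in its oxidative arm and for ribose-5-phosphate, and its non-oxidative arm exchanges sugar phosphates with glycolysis. Pluripotent stem cells of mouse and human are known for a high rate of glycolysis.

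The neoSFs were wild-type cultures from 10-day-old female pups of the inbred strains FD2M1 and LSD1, with 1 library per strain. The monoiPSCs were 1 line per strain, reprogrammed with episomal plasmids that carry human OCT4, SOX2, NANOG, KLF4, LIN28 and cMYC and kept without feeder cells in a medium with LIF, bFGF and a ROCK inhibitor. Each line was sequenced at passage 15 and passage 25, giving 4 libraries that are not independent cultures, so that the p-values below measure only the spread between these libraries. The neoSFs were grown in a fibroblast medium, and their libraries were read in-house as short single-end reads, whereas the monoiPSC libraries were read as longer paired-end reads by a sequencing service. Medium, sequencing platform and cell type separate the libraries in the same way, and their effects on a gene cannot be told apart. In addition, with RNA from whole cultures, fewer cells of a type and less RNA per cell cannot be told apart.

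Total counts were 14278794 and 16982978 in the neoSF libraries and 28684754 to 35564261 in the monoiPSC libraries. The labels were checked against marker genes. The summed normalized read count (NRC, the count after the authors' DESeq scaling) of 11 fibroblast markers with a row, of 12 listed, was 1692784 and 1799942 in neoSFs and 11278 to 14141 in monoiPSCs, and that of 10 pluripotency markers was 146 and 228 in neoSFs and 12811 to 16852 in monoiPSCs. Markers of other cell types were also present. The monoiPSCs summed to 4379 to 15300 NRC for 3 of 4 melanocyte markers with a row, nearly all of it DCT, to 1623 to 4345 for 4 of 4 neural markers and to 346 to 603 for 4 of 4 endothelial markers, nearly all of it TIE1, whereas the neoSFs summed to 20.1 to 29.6, 120 to 164 and 8.13 to 22.7. CDH5, a defining endothelial gene, was at 0 in both neoSF libraries and at 1.03 to 1.26 in monoiPSCs, and TYR, a defining melanocyte gene, was at most 6.73 in any library. Keratinocyte markers, 2 of 7 with a row, summed to 53.7 and 151 in neoSFs and to at most 6.73 in monoiPSCs, and blood markers, 3 of 4 with a row, to between 23.1 and 38.7 in all 6 libraries. The part of these cells in the results below was not tested. Skeletal muscle markers are given beside the LSD1 line, where they stand apart.

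Differential expression (DE) required an edgeR quasi-likelihood p, adjusted by Benjamini-Hochberg over 13072 genes tested, of at most 0.05 together with a change of at least 2-fold, and only DE genes are said to have risen or fallen. Of the 26 genes, 25 reached an NRC of 20 in both neoSF or all 4 monoiPSC libraries and were tested, and FBP1 did not. In monoiPSCs 8 genes rose (SLC2A3, PGK1, PKM, LDHB, SLC16A1, SLC16A3, PDK1 and TKT) and 3 fell (PFKP, PFKFB3 and PDK2). These 11 genes are 44.0% of the 25, close to the 45.9% of all tested genes that were DE. The 8 that rose are 32.0%, beside 24.3% of all tested genes, and the 3 that fell are 12.0%, beside 21.6%. The median log2 fold change was 0.58 for the 25 genes and 0.08 for all tested genes. The NRC of the groups did not overlap for 15 of the 25 genes, or 60%, against 73.2% of all tested genes. As a list, these genes were thus not called DE more often than other genes, and the description below is about which of them moved. Scaling the libraries by their total counts alone, without a factor for composition, raises the median of all genes to 0.61 and gives 14 genes higher and 1 lower, beside 8 and 3 here. It does the same to all tested genes, with 4786 higher and 1931 lower against 3176 and 2824.

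**Figure D1:**
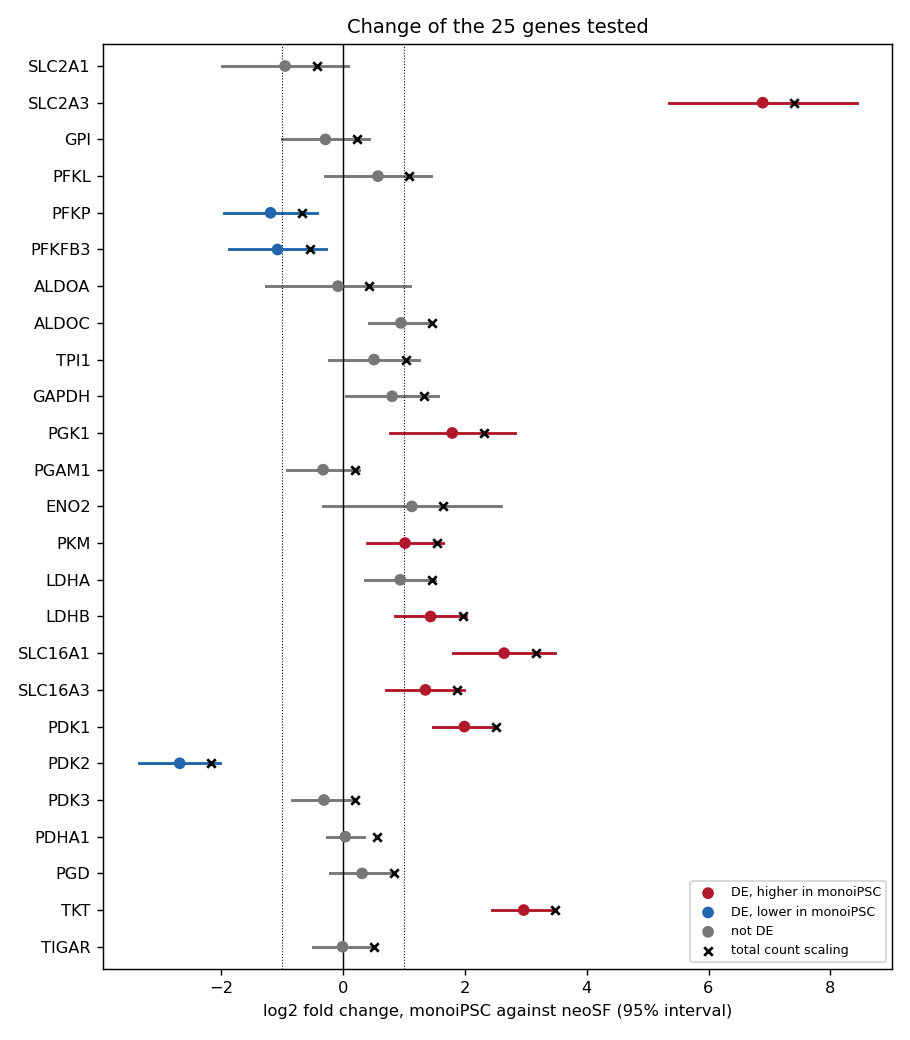
Log2 fold change of monoiPSCs against neoSFs (horizontal axis) for the 25 tested genes in pathway order, with points for the estimate, bars for its 95% interval, colours for DE genes, crosses for the estimate with total count scaling and dotted lines at 2-fold. SLC2A3 lies farthest to the right at 6.89, followed by TKT at 2.97 and SLC16A1 at 2.65, and PDK2 lies farthest to the left at -2.68.

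**Figure D2:**
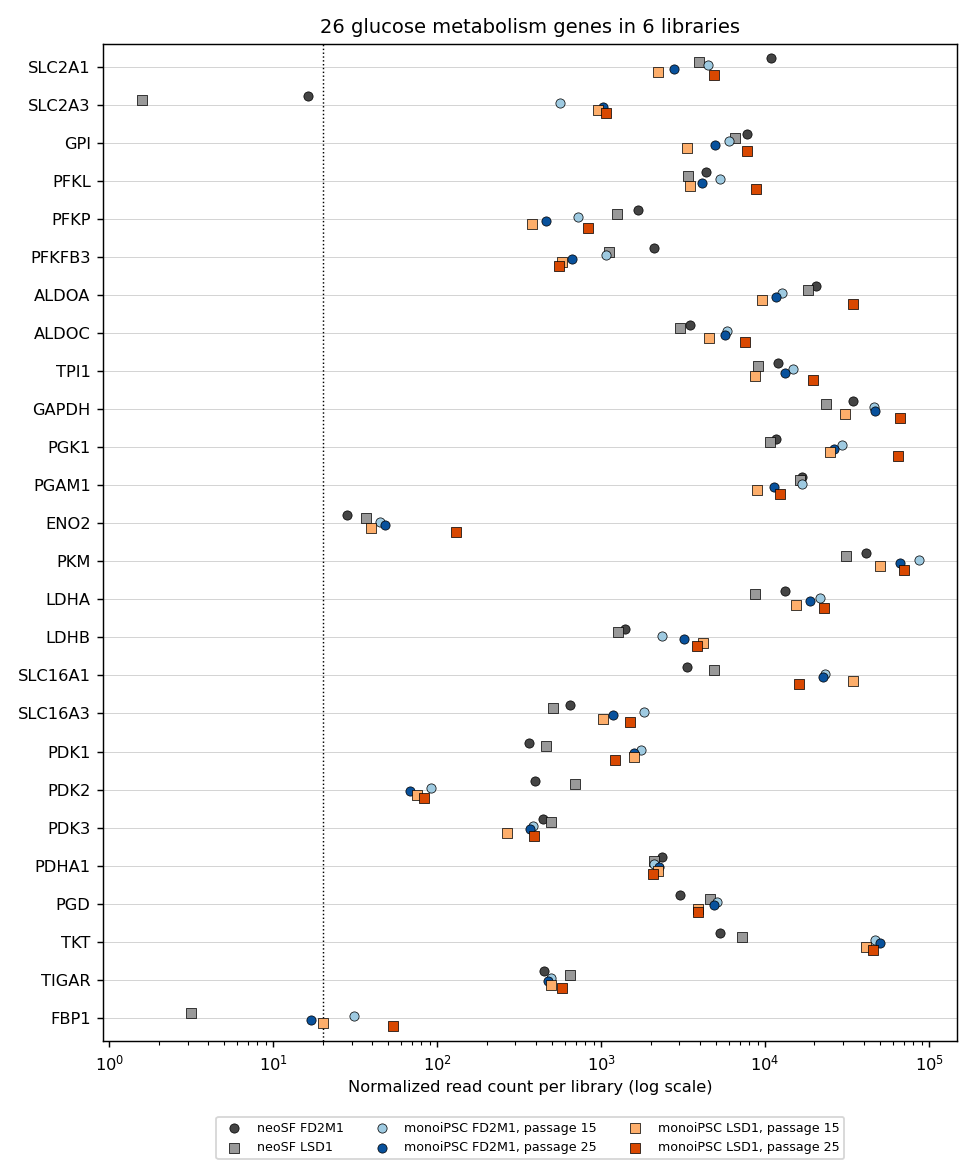
NRC (horizontal, log scale) of the 26 genes in pathway order, with a point for each of the 6 libraries, circles for FD2M1 and squares for LSD1. The dotted line marks an NRC of 20, and a value of 0 is not drawn, which leaves out FBP1 in the FD2M1 neoSFs. SLC2A3 has its neoSF points at 16.3 and 1.58, left of the line, while its monoiPSC points lie at 561 and above.

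Glucose enters cells through facilitative transporters. SLC2A1 encodes GLUT1, the transporter of most cells, and SLC2A3 encodes GLUT3, a transporter with high affinity for glucose. The neuronal-type transporter SLC2A3 (gene 100013548, chromosome 8) was nearly absent from neoSFs and rose in monoiPSCs. Its NRC was 16.3 in the FD2M1 and 1.58 in the LSD1 neoSFs, and 561 and 1020.4 in the FD2M1 and 957 and 1067 in the LSD1 monoiPSCs at passages 15 and 25. All 4 monoiPSC libraries lay far above both neoSF libraries, in which the gene had 8 and 1 counts. The log2 fold change of SLC2A3 was 6.89 (SE 0.66, edgeR adjusted p = 0.000137). Pooled over the libraries of each group, the ratio was 115, with a 95% counting interval of 60.4 to 251 that covers counting error only. Leaving out single libraries gave log2 fold changes of 5.95 to 9.17, the highest without the FD2M1 neoSFs, and the gene was DE each time.

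SLC2A1 was measured at 10865 in the FD2M1 and 3945 in the LSD1 neoSFs, and 4493 and 2763 in the FD2M1 and 2229 and 4855 in the LSD1 monoiPSCs at passages 15 and 25. The FD2M1 neoSFs were highest, at 2.75 times the LSD1 neoSFs, and the LSD1 neoSFs lay within the range of the monoiPSCs, so the groups overlapped. For SLC2A1 the fitted level was 1.93-fold lower in monoiPSCs, a log2 fold change of -0.95 (SE 0.44, edgeR adjusted p = 0.0977). SLC2A1 was not DE here, but it was with DESeq2, at -1.0 (adjusted p = 0.0436), and in edgeR without the LSD1 neoSFs, at -1.50 (adjusted p = 0.0193). The ratio of SLC2A3 to SLC2A1 within a library, which does not depend on how libraries are scaled, changed by 8.03 on the log2 scale. It was -9.29 and -10.7 in neoSFs and -3.00 to -1.22 in monoiPSCs. Only the change of this ratio is read here, since gene lengths were not used and levels of different genes are not compared.

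Of the 7 genes between glucose-6-phosphate and triose phosphate, 2 fell (21.6% of all tested genes did), none rose (24.3%) and 5 were not DE. Both that fell act at the phosphofructokinase step, where fructose-6-phosphate is committed to glycolysis. PFKP (gene 100022041, chromosome 8), the platelet-type subunit of phosphofructokinase, was at 1669.6 in the FD2M1 and 1252 in the LSD1 neoSFs, and 725 and 462 in the FD2M1 and 378 and 836 in the LSD1 monoiPSCs at passages 15 and 25. Each monoiPSC library lay below each neoSF library, with the LSD1 line at passage 25 nearest to them. In edgeR PFKP changed by -1.19 on the log2 scale (SE 0.33, adjusted p = 0.0149). PFKFB3 (gene 100010280, chromosome 8), which makes fructose-2,6-bisphosphate, an activator of phosphofructokinase, was at 2109.5 in the FD2M1 and 1123 in the LSD1 neoSFs, and 1073 and 665 in the FD2M1 and 576 and 556 in the LSD1 monoiPSCs at passages 15 and 25. The groups did not overlap, but the FD2M1 line at passage 15 and the LSD1 neoSFs lay close together. This corresponds to a log2 fold change of -1.07 (SE 0.34, edgeR adjusted p = 0.0263). Both calls depended on the FD2M1 neoSFs: without that library the log2 fold change was -0.97 (edgeR adjusted p = 0.0883) for PFKP and -0.56 (0.249) for PFKFB3. Neither gene was DE with total count scaling, at -0.67 and -0.55. PFKFB3 was also not DE with the passages of a line summed (-1.08). The same held when FD2M1 passage 25, LSD1 passage 15 or LSD1 passage 25 was left out in turn (-1.03 to -0.98). Paralogs of PFKFB3, named after their values were seen, did not fall. PFKFB1 rose, at 4.96, from 1 and 0 counts in neoSFs to an NRC of 21.8 to 36.9 in monoiPSCs. PFKFB2 (0.47) and PFKFB4 (0.85) were not DE.

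PFKL, the liver-type subunit of the same enzyme, was not DE. It was at 4376 in the FD2M1 and 3381 in the LSD1 neoSFs, and 5292 and 4129 in the FD2M1 and 3485 and 8734 in the LSD1 monoiPSCs at passages 15 and 25. The neoSFs overlapped with the monoiPSCs, among which LSD1 passage 25 was highest at 2.03 times the mean of the other 3. With edgeR the difference in PFKL was 0.58 on the log2 scale (SE 0.37, adjusted p = 0.208). Among the settings tried, PFKL was DE only with total count scaling, at 1.09. The ratio of PFKP to PFKL, in contrast, separated the groups without overlap. Its log2 was -1.39 and -1.43 in neoSFs and -3.38 to -2.87 in monoiPSCs, so that PFKP was 3.35-fold lower relative to PFKL.

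The 2 aldolases differed from each other. ALDOA, the aldolase of muscle and most other tissues, was at 20335 in the FD2M1 and 18171 in the LSD1 neoSFs, and 12759 and 11588 in the FD2M1 and 9529 and 34336 in the LSD1 monoiPSCs at passages 15 and 25. In 3 monoiPSC libraries it was below both neoSF libraries, and in LSD1 passage 25 it was above both. The log2 fold change of ALDOA was -0.08 (SE 0.51, edgeR adjusted p = 0.898). Without LSD1 passage 25 the log2 fold change was -0.69 (edgeR adjusted p = 0.0163), still under 2-fold. ALDOC, the brain-type aldolase, was at 3486 in the FD2M1 and 3039.7 in the LSD1 neoSFs, and 5875 and 5654 in the FD2M1 and 4561 and 7544 in the LSD1 monoiPSCs at passages 15 and 25. All monoiPSC libraries lay above the neoSFs. For ALDOC the fitted level was 1.94-fold higher in monoiPSCs, a log2 fold change of 0.95 (SE 0.22, edgeR adjusted p = 0.00731). That change was just under 2-fold, and ALDOC was DE with total count scaling (1.47), without LSD1 passage 15 (1.06) and without the FD2M1 neoSFs (1.05). The log2 ratio of ALDOC to ALDOA was -2.54 and -2.58 in neoSFs, -1.12 to -1.04 in 3 monoiPSC libraries and -2.19 in LSD1 passage 25.

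Glucose-6-phosphate isomerase (GPI) and triose phosphate isomerase (TPI1) catalyse reversible steps and were not DE. The NRC of GPI was 7792 and 6521 in neoSFs and 3359 to 7710 in monoiPSCs. That of TPI1 was 12004 and 9073 in neoSFs and 8631 to 19596 in monoiPSCs. Both overlapped, with LSD1 passage 15 lowest and LSD1 passage 25 highest of the monoiPSCs. Their log2 fold changes were -0.29 (95% interval -1.0 to 0.43) and 0.51 (-0.23 to 1.26). TPI1 was DE only with total count scaling, at 1.03.

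Of the 5 genes from glyceraldehyde-3-phosphate to pyruvate, 2 rose, beside 24.3% of all tested genes, and 3 were not DE. PGK1 (gene 100012797, chromosome X), phosphoglycerate kinase, which forms the first ATP of glycolysis, was at 11645 in the FD2M1 and 10663 in the LSD1 neoSFs, and 29315 and 26404 in the FD2M1 and 24913 and 64288 in the LSD1 monoiPSCs at passages 15 and 25. Every monoiPSC library was above the neoSFs, and LSD1 passage 25 was the highest. In edgeR PGK1 changed by 1.79 on the log2 scale (SE 0.44, adjusted p = 0.00916). Without LSD1 passage 25 the change was 1.35 (edgeR adjusted p = 0.00106) and the gene was still DE. Without the LSD1 neoSFs it was 1.74 with an adjusted p of 0.0503, just above the threshold.

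PKM (gene 100017841, chromosome 1), pyruvate kinase, which catalyses the last ATP-forming step, was at 40955 in the FD2M1 and 31027 in the LSD1 neoSFs, and 86344 and 66689 in the FD2M1 and 50089.5 and 69903 in the LSD1 monoiPSCs at passages 15 and 25. The 4 monoiPSC libraries lay above both neoSF libraries. This corresponds to a log2 fold change of 1.02 (SE 0.27, edgeR adjusted p = 0.0120). This was at the edge of the 2-fold threshold. PKM was not DE with DESeq2 or RLE scaling (0.97 in each), with limma on the deposited log2 values (0.91), without the LSD1 neoSFs (0.84), without FD2M1 passage 15 (0.88) or without LSD1 passage 25 (0.99). The counts are per gene, so the PKM1 and PKM2 isoforms are not resolved.

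GAPDH, glyceraldehyde-3-phosphate dehydrogenase, was at 34318 in the FD2M1 and 23673 in the LSD1 neoSFs, and 45858 and 46969 in the FD2M1 and 30842 and 66294 in the LSD1 monoiPSCs at passages 15 and 25. The LSD1 line at passage 15 lay below the FD2M1 neoSFs, so that the groups overlapped. With edgeR the difference in GAPDH was 0.81 on the log2 scale (SE 0.32, adjusted p = 0.0617). It was DE only with total count scaling among the settings tried, at 1.33. PGAM1, phosphoglycerate mutase, was at 16853 and 16257 in neoSFs and 8962 to 16843 in monoiPSCs, and its log2 fold change was -0.32 (95% interval -0.91 to 0.26). ENO2, the neuronal enolase, was low in all libraries, with an NRC of 28.3 in the FD2M1 and 37.0 in the LSD1 neoSFs, and 44.9 and 47.7 in the FD2M1 and 39.5 and 131 in the LSD1 monoiPSCs at passages 15 and 25. The LSD1 line at passage 25 stood alone at 2.97 times the mean of the other 3 monoiPSC libraries. The log2 fold change of ENO2 was 1.13 (SE 0.62, edgeR adjusted p = 0.150). ENO2 was DE only with total count scaling, at 1.64. The neoSF libraries had 14 and 23 counts of ENO2, so its level there is imprecise. Genes such as GAPDH and PGK1 have near-identical copies in mammalian genomes, and reads of the 2 groups differ in length, so their counts are uncertain where reads could be assigned to a copy.

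At the lactate step, 3 of 4 genes rose, beside 24.3% of all tested genes, and the fourth was just under 2-fold. LDHA, the lactate dehydrogenase subunit typical of muscle and glycolytic cells, was at 13177 in the FD2M1 and 8674 in the LSD1 neoSFs, and 21473 and 18658 in the FD2M1 and 15469 and 22875 in the LSD1 monoiPSCs at passages 15 and 25. All monoiPSC libraries were above the neoSFs. For LDHA the fitted level was 1.92-fold higher in monoiPSCs, a log2 fold change of 0.94 (SE 0.25, edgeR adjusted p = 0.0123). LDHA was DE without the FD2M1 neoSFs (1.27), without LSD1 passage 15 (1.04) and with total count scaling (1.46). LDHB (gene 554182, chromosome 8), the subunit typical of heart, was at 1404 in the FD2M1 and 1271 in the LSD1 neoSFs, and 2346 and 3205 in the FD2M1 and 4166 and 3852 in the LSD1 monoiPSCs at passages 15 and 25. The lowest monoiPSC library was clearly above the neoSFs. In edgeR LDHB changed by 1.44 on the log2 scale (SE 0.25, adjusted p = 0.00198). The ratio of LDHB to LDHA did not separate the groups, with a log2 of -3.23 and -2.77 in neoSFs and -3.19 to -1.89 in monoiPSCs.

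The monocarboxylate transporters carry lactate and pyruvate together with a proton. SLC16A1 (gene 100033148, chromosome 2), or MCT1, is the widely expressed form, and SLC16A3 (gene 100029717, chromosome 2), or MCT4, is the form of cells that export much lactate. The NRC of SLC16A1 was 3327 in the FD2M1 and 4850.2 in the LSD1 neoSFs, and 23069.7 and 22427 in the FD2M1 and 34196 and 16120.1 in the LSD1 monoiPSCs at passages 15 and 25. The groups were far apart, and LSD1 passage 25, which was highest for many glycolytic genes, was the lowest monoiPSC library here. This corresponds to a log2 fold change of 2.65 (SE 0.36, edgeR adjusted p = 0.000631). SLC16A3 was at 649.7 in the FD2M1 and 511 in the LSD1 neoSFs, and 1837 and 1178 in the FD2M1 and 1031 and 1499.6 in the LSD1 monoiPSCs at passages 15 and 25. The monoiPSCs were higher without overlap. With edgeR the difference in SLC16A3 was 1.36 on the log2 scale (SE 0.27, adjusted p = 0.00387). Both rose, SLC16A1 by more, and the log2 ratio of SLC16A3 to SLC16A1 was -2.35 and -3.25 in neoSFs and between -5.05 and -3.43 in monoiPSCs. BSG, the chaperone that these transporters need at the cell surface, was at 10113 and 9216 in neoSFs and 11537 to 13413 in monoiPSCs, without overlap. Its log2 fold change of 0.43 passed in p (edgeR adjusted p = 0.0387) but was under 2-fold, so BSG was not DE. BSG was chosen after its values were seen.

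Among the pyruvate dehydrogenase kinases, which switch off the complex by phosphorylating its E1 alpha subunit, PDK1 rose and PDK2 fell. PDK1 (gene 100617164, chromosome 4), the kinase known as a target of hypoxia-inducible factor, was at 360.4 in the FD2M1 and 460.3 in the LSD1 neoSFs, and 1758 and 1584 in the FD2M1 and 1580.5 and 1214 in the LSD1 monoiPSCs at passages 15 and 25. All 4 monoiPSC libraries were higher, with LSD1 passage 25 the lowest of them. The log2 fold change of PDK1 was 1.99 (SE 0.22, edgeR adjusted p = 0.000242). PDK2 (gene 100022514, chromosome 2), a kinase of wide expression, was at 396 in the FD2M1 and 688 in the LSD1 neoSFs, and 92.0 and 68.1 in the FD2M1 and 75.2 and 82.6 in the LSD1 monoiPSCs at passages 15 and 25. All monoiPSC libraries lay far below both neoSF libraries. For PDK2 the fitted level was 6.39-fold lower in monoiPSCs, a log2 fold change of -2.68 (SE 0.28, edgeR adjusted p = 0.000213). PDK3 was at 443 and 491 in neoSFs and 265 to 392 in monoiPSCs, without overlap, but its log2 fold change of -0.31 (edgeR adjusted p = 0.254) did not pass. It was positive, at 0.21, with total count scaling.

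Relative to PDK1, PDK2 was 24.6-fold and PDK3 4.99-fold lower in monoiPSCs. The log2 ratio of PDK2 to PDK1 was 0.14 and 0.58 in neoSFs and -4.53 to -3.87 in monoiPSCs. PDHA1, the E1 alpha subunit itself, hardly differed, at 2363 in the FD2M1 and 2109 in the LSD1 neoSFs, and 2093 and 2243 in the FD2M1 and 2217 and 2056 in the LSD1 monoiPSCs at passages 15 and 25. The range over all 6 libraries was narrow and the groups overlapped. In edgeR PDHA1 had a log2 fold change of 0.04 (SE 0.13, adjusted p = 0.796). The 95% interval of -0.26 to 0.34 lies well inside 2-fold. The estimate was slightly negative with RLE scaling, DESeq2 and limma.

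Other genes of the pyruvate step came from a list of 62 further pathway genes. PDP1, a phosphatase that reverses the action of the kinases, fell 4.31-fold, from a mean NRC of 1609 ± 13.2 (SD, n = 2) to 349 ± 41.5 (SD, n = 4), with a log2 fold change of -2.11 (SE 0.16, edgeR adjusted p = 5.16e-05). PC, pyruvate carboxylase, which makes oxaloacetate from pyruvate, rose 3.85-fold from 554 ± 54.7 to 1998 ± 76.0 (edgeR adjusted p = 5.45e-05). Named after their values were seen, PDHX and DLD, further subunits of the complex, rose with log2 fold changes of 1.36 and 1.04. MPC1, a subunit of the mitochondrial pyruvate carrier, fell, at -1.03. DLAT and PDHB of the complex and MPC2, the other carrier subunit, were not DE. Their log2 fold changes were 0.93, 0.59 and 0.16 (edgeR adjusted p = 0.00189, 0.00932 and 0.563). DLAT and PDHB were under 2-fold but without overlap. MPC1, DLAT, PDHB and MPC2 were also named after their values were seen. DLD was not DE with DESeq2 or RLE scaling (0.99 in each), with limma (0.94) or without the LSD1 neoSFs (0.99), and MPC1 not with total count scaling (-0.51), without LSD1 passage 15 (-0.93) or without the LSD1 neoSFs (-0.98).

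**Figure D3:**
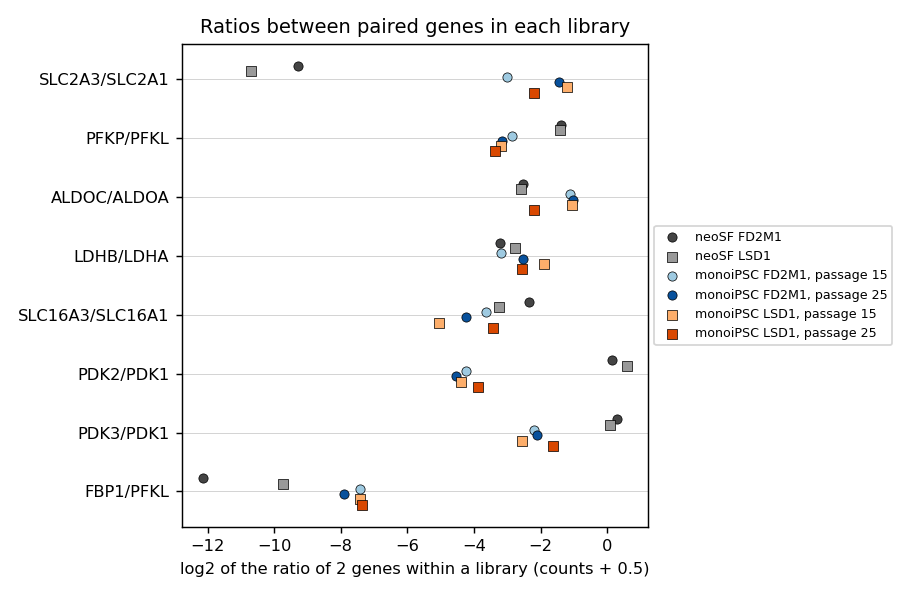
Log2 ratio of paired genes within each library (horizontal axis, counts plus 0.5) for the 8 of 12 planned pairs with both genes in the table, with a point per library as in the plot of NRC. For 7 of the 8 pairs the neoSF and monoiPSC points do not overlap, beside 73.2% of all tested single genes by NRC. The share over other gene pairs was not computed. The largest changes are SLC2A3 to SLC2A1 (8.03) and PDK2 to PDK1 (-4.62), while LDHB to LDHA overlaps. FBP1 to PFKL rests on 0 and 2 counts of FBP1 in neoSFs. SLC16A3 to SLC16A1 is close between the groups, at -3.25 in LSD1 neoSFs and -3.43 in LSD1 passage 25.

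In the pentose phosphate pathway TKT (gene 100014601, chromosome 6), transketolase of the non-oxidative arm, rose most by NRC of all 26 genes. It was at 5338 in the FD2M1 and 7210.3 in the LSD1 neoSFs, and 46661 and 49972 in the FD2M1 and 41511 and 45689 in the LSD1 monoiPSCs at passages 15 and 25. The 4 monoiPSC libraries were within 1.20-fold of each other and all lay far above the neoSFs. This corresponds to a log2 fold change of 2.97 (SE 0.22, edgeR adjusted p = 5.11e-05). As a share of reads rather than molecules, TKT took 3.61% of the reads of the 26 genes in neoSFs and 14.6% in monoiPSCs on average. The difference in TKT equalled 27.7% of the net difference in the summed NRC of these genes. PGD, the second dehydrogenase of the oxidative arm, was at 3021 in the FD2M1 and 4586 in the LSD1 neoSFs, and 5082 and 4897 in the FD2M1 and 3889 and 3875 in the LSD1 monoiPSCs at passages 15 and 25. It was higher in FD2M1 monoiPSCs than in their neoSFs and lower in LSD1 monoiPSCs than in theirs. With edgeR the difference in PGD was 0.32 on the log2 scale (SE 0.22, adjusted p = 0.249). TIGAR, a fructose-2,6-bisphosphatase that directs glucose toward the pentose phosphate pathway, was at 449 and 645 in neoSFs and 473 to 580 in monoiPSCs. Its log2 fold change of -0.005 had a 95% interval of -0.49 to 0.48, and its sign changed with the setting.

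The remaining genes of this pathway came from the same list of further genes. RPIA, which isomerises ribulose-5-phosphate to ribose-5-phosphate, rose 5.49-fold from 964 ± 15.1 (SD, n = 2) to 4948 ± 950 (SD, n = 4), with an edgeR adjusted p of 0.000118. PGM2, a phosphopentomutase that interconverts ribose phosphates, rose 17.2-fold from 333 ± 84.9 to 5377 ± 1115 (edgeR adjusted p = 4.65e-05). RPE, the epimerase of the non-oxidative arm, and PRPS2, which makes PRPP from ribose-5-phosphate, rose with log2 fold changes of 1.66 and 1.46 (edgeR adjusted p = 0.00348 and 0.0221), and PRPS2 was not DE without the FD2M1 neoSFs (1.08). PGLS of the oxidative arm had a log2 fold change of 0.68 (edgeR adjusted p = 0.0137), under 2-fold, and its groups did not overlap. The transketolase-like TKTL1 had -0.09, and neither gene was DE. RPE, PRPS2, PGLS and TKTL1 were named after their values were seen, the difference between the arms itself was not tested, and transaldolase (TALDO1) is not analysed here.

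**Figure D4:**
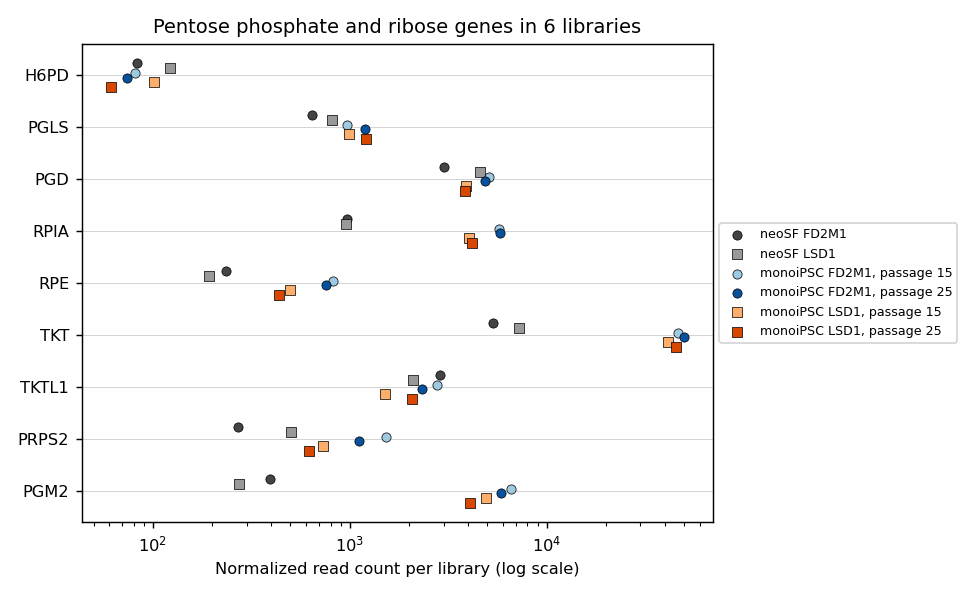
NRC (horizontal, log scale) of 9 pentose phosphate and ribose genes in each of the 6 libraries, from the oxidative arm (H6PD, PGLS, PGD) to the non-oxidative arm and ribose phosphate use. The monoiPSC points of PGLS, RPIA, RPE, TKT, PRPS2 and PGM2 lie right of both neoSF points, and those of H6PD, PGD and TKTL1 overlap them.

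FBP1, fructose-1,6-bisphosphatase of gluconeogenesis, was close to undetected in neoSFs. It had 0 and 2 counts there and an NRC of 30.9 and 16.9 in the FD2M1 line and 19.98 and 53.3 in the LSD1 line at passages 15 and 25. Against a fixed floor of 3 counts, an NRC of 5.85 in the FD2M1 neoSFs, the monoiPSC mean was 5.17-fold higher and the lowest monoiPSC library 2.89-fold. With 2 counts in the LSD1 neoSFs, this floor is not a confidence limit. FBP1 was not tested because FD2M1 passage 25 and LSD1 passage 15 were below an NRC of 20, and it was DE and higher when no filter on expression was used.

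Summed over the 26 genes, the NRC was 197381 and 159663 in neoSFs and 253465 to 396530 in monoiPSCs, a 1.80-fold higher mean. The genes took 0.709% and 0.594% of all counts in neoSFs and 1.47% to 2.16% in monoiPSCs, a 2.76-fold difference that falls to 1.93-fold on TMM-scaled values. TKT, PKM, PGK1, SLC16A1 and GAPDH, the 5 genes with the largest positive differences in mean NRC, equalled 94.7% of the net difference in summed NRC. Genes lower in monoiPSCs count as negative in this net, and LDHA alone was a further 6.08%. No p-value is given for a sum over chosen genes.

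Within the monoiPSCs, LSD1 at passage 25 was high for many of the glycolytic genes. It was the highest monoiPSC library for 14 of the 25 tested genes (56.0%, against 31.1% of all tested genes). Its NRC was at least 1.5 times the mean of the other 3 for 9 genes (36.0%, against 11.9%) and at least 2 times for 4 genes (16.0%, against 4.90%), namely ALDOA (3.04), ENO2 (2.97), PGK1 (2.39) and PFKL (2.03). GPI, TPI1, GAPDH, PFKP and SLC2A1 were between 1.5 and 2 times. SLC16A1 (0.607), PFKFB3 (0.721), PDK1 (0.740) and PGD (0.838) were lower there than in the other 3, and TKT (0.992) and PKM (1.03) hardly differed. The same line at passage 15 was the lowest monoiPSC library for 16 of the 25 genes (64.0%, against 23.3% of all tested genes). LSD1 passage 25 was also the highest monoiPSC library for 43.2% of the tested further pathway genes, 47.6% of the regulators and 64.7% of the targets of hypoxia-inducible factor described below. The median ratio to the other 3 was 1.19 for the 25 genes, 1.06, 1.16 and 1.32 for these lists and 0.994 for all tested genes. Among those targets, CA9, a carbonic anhydrase named after its values were seen, was 466 there against 34.9 to 135.

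**Figure D5:**
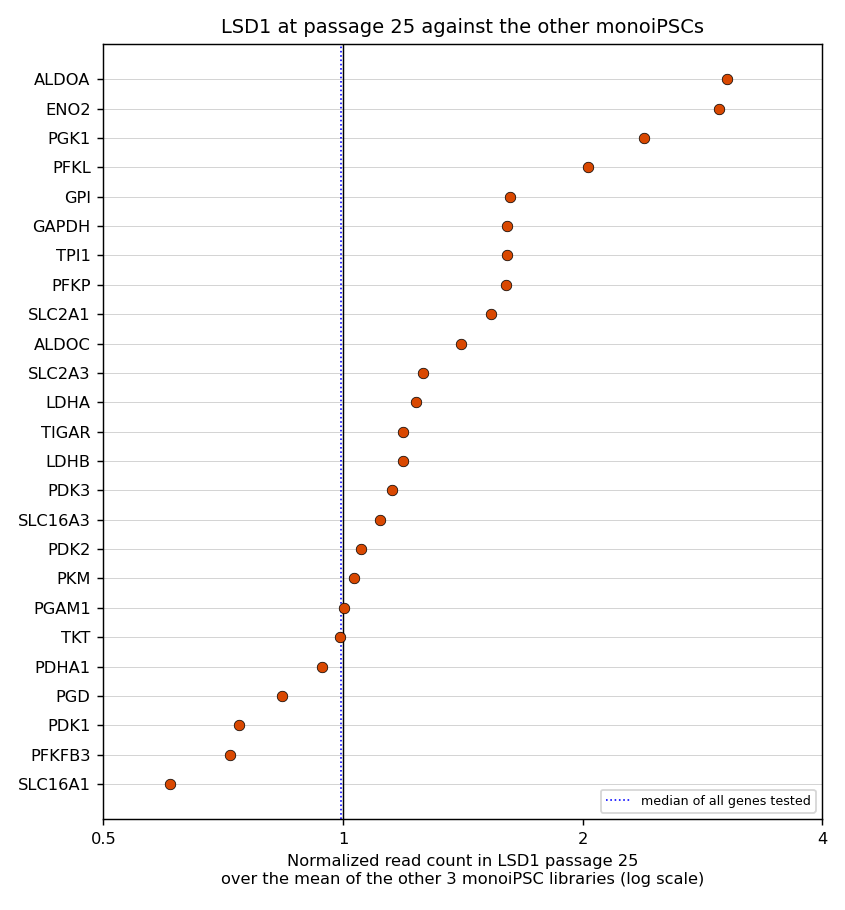
Ratio of the NRC in LSD1 passage 25 to the mean of the other 3 monoiPSC libraries (horizontal, log scale) for the 25 tested genes, with a solid line at 1 and a dotted line at the median of all genes tested, 0.994. ALDOA, ENO2, PGK1 and PFKL lie above 2, and SLC16A1 lies lowest at 0.607.

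Skeletal muscle markers were high in the same library. Of 12 listed, 7 had a row, and their summed NRC was 30446 in LSD1 passage 25, 10813 to 13556 in the other monoiPSCs and 1806 and 3064 in neoSFs. ACTA1 was 9645 there against 754 to 1765 in the other 3, DES 4213 against 315 to 769 and MYOD1 591 against 35.1 to 103, whereas MYF5 was at most 8.94 in any library. MYOG was 5549 there but also 4135 in LSD1 passage 15, against 985 and 1527 in the FD2M1 line. CKB, the brain-type creatine kinase on the same list, made up much of the sum in the other libraries and was 9641 there against 6686 to 8684. The muscle-type enzymes PGAM2 (310 against 35.5 to 55.7) and FBP2 (72.1 against 6.73 to 19.98), and the glucose-responsive genes TXNIP (5557 against 929 to 1367) and ARRDC4 (1451 against 325 to 455), were highest there as well among the monoiPSCs, and these 4 genes were named after their values were seen. The part of muscle-type cells in the values of ALDOA, ENO2, PGK1 and the other glycolytic genes of this library was not tested. All 11 DE calls other than PKM and PFKFB3 were kept without it.

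The differences between passages and between lines were tested with the other factor as a covariate, which leaves 1 residual degree of freedom per gene. Between passage 25 and passage 15, edgeR called 0 of 25 genes DE, as it did for 0% of the 12252 genes tested within monoiPSCs, and 0 of 25 had an unadjusted p under 0.05, beside 9.35% of all genes. DESeq2 called 0 of 25 as well, beside 0.971% of all genes, with 3 under an unadjusted 0.05. Of the 25 genes, 17 had a higher estimate at passage 25, with a median log2 difference of 0.17 against -0.01 for all genes. The direction was the same in both lines for 8 of the 25 genes and opposite for 17, of which 15 were higher at passage 25 in LSD1 only. ALDOA was 3.60 times as high at passage 25 as at passage 15 in LSD1 and 0.908 times in FD2M1, and SLC2A1 2.18 and 0.615 times.

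Between the LSD1 and FD2M1 lines, edgeR again called 0 of 25 genes DE, beside 0% of all genes, and 3 had an unadjusted p under 0.05 (12.0%, beside 14.2% of all genes). These were LDHB, with a log2 difference of 0.55 (SE 0.19) in favour of LSD1, PFKFB3 at -0.57 (SE 0.21) and PGD at -0.36 (SE 0.14), with edgeR adjusted p-values of 0.293, 0.317 and 0.340. DESeq2 called 0 of 25, beside 1.56% of all genes. With 1 line per strain, strain and line cannot be told apart.

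The list of 62 further pathway genes had 50 with a row and 44 tested. Of these, 14 rose and 8 fell, or 50.0% DE beside 45.9% of all tested genes, with a median log2 fold change of 0.56. Besides PGM2, RPIA and PC, the highest were ENO3, the muscle enolase, which rose 13.2-fold from a mean of 105 ± 8.93 to 1295 ± 415 (edgeR adjusted p = 0.000161), and SLC2A12, a glucose transporter, which rose 3.26-fold. Besides PDP1, the lowest were HK3, a hexokinase of blood cells, which fell 5.60-fold from 183 ± 21.2 to 30.5 ± 10.1 (edgeR adjusted p = 0.00121), SLC2A4, the insulin-responsive transporter GLUT4 (3.76-fold), SLC2A10 (3.09-fold), a facilitative glucose transporter, and G6PC3 (2.42-fold), a glucose-6-phosphatase. SLC2A4 was not DE without the LSD1 neoSFs (-1.24), and G6PC3 not with total count scaling (-0.75). With SLC2A3 and SLC2A12 higher and SLC2A4 and SLC2A10 lower, the glucose transporter genes moved both ways.

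Of 24 regulators of these pathways, 22 had a row and 21 were tested, of which 2 rose and 6 fell. These are 38.1% of the list beside 45.9% of all tested genes, with a median log2 fold change of -0.36 against 0.08. HIF1A, the oxygen-regulated subunit of hypoxia-inducible factor, fell 2.14-fold from 9243 ± 440 to 4038 ± 1017 (edgeR adjusted p = 0.00508), and EPAS1, its relative, fell 2.40-fold (adjusted p = 0.0312). EGLN3, an oxygen-sensing prolyl hydroxylase, fell 10.6-fold from 993 ± 263 to 87.8 ± 47.7 (edgeR adjusted p = 0.000987). MAX, the partner of MYC, PPARA, a regulator of fatty acid oxidation, and PRKAA1, a catalytic subunit of AMP-activated kinase, fell 2.39-fold, 6.83-fold and 2.62-fold. TFAM, a mitochondrial transcription factor, rose 2.67-fold. With total count scaling HIF1A, EPAS1, MAX and PRKAA1 were no longer DE (-0.58, -0.75, -0.73 and -0.86). HIF1A was also not DE without LSD1 passage 15 (-0.99), and EPAS1 not with passages summed (-1.28), without LSD1 passage 15 (-1.28), without FD2M1 passage 25 (-1.17) or without the LSD1 neoSFs (-0.94).

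Of 18 targets of hypoxia-inducible factor outside the pathway, 17 had a row and all 17 were tested, of which 3 rose and 8 fell. These are 64.7% of the list beside 45.9% of all tested genes, with a median log2 fold change of -1.37 against 0.08. Those that rose were CA12, a carbonic anhydrase, which rose 27.9-fold from 127 ± 38.5 to 3295 ± 345, FAM162A (2.91-fold) and KDM3A (2.58-fold), a histone demethylase. Among those that fell were LOX, ADM, P4HA2 and P4HA1, with log2 fold changes of -7.40, -3.02, -2.73 and -2.67. LOX and the prolyl hydroxylases P4HA1 and P4HA2 serve the extracellular matrix and are known from fibroblasts, whose 11 markers summed to 1692784 and 1799942 in neoSFs and at most 14141 in monoiPSCs. The part of fibroblast content in this list was not tested.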

How the data were processed

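The data were 6 RNA-seq libraries, 2 of neoSFs and 4 of monoiPSCs. The authors aligned reads to MonDom5 with StrandNGS, removed reads of low quality and non-primary alignments of reads with several, and deposited gene counts that were treated as estimated counts, because 86.8% of the values above 0 were fractional (tolerance 1e-06). For the tests each count was rounded. A second deposited table holds log2 values that the authors normalized with DESeq, and the NRC is 2 to the power of these. Genes were tested where the NRC reached 20 in both neoSFs or in every monoiPSC library, with edgeR 4.0.16 in R 4.3.3 (glmQLFit, glmQLFTest, TMM scaling, group only). The SE is the size of the log2 fold change divided by the square root of F. Within monoiPSCs, 12252 genes that reached this NRC in all 4 libraries were tested. The scripts were tested on simulated data.

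The alternatives were RLE and total count scaling, DESeq2 1.42.0, limma 3.58.1 on the log2 values, no expression filter, a strain block, passages summed per line and leaving out each library. The lines were made from neoSF cultures of their own strain, so strain pairs the libraries, although the FD2M1 minus LSD1 differences of neoSFs and monoiPSCs correlated with r = 0.04 across 13072 genes. The 32 genes, the further lists and the markers were chosen with earlier results of these data known. All listed genes with a row are named. From each further list every DE gene is named if 10 or fewer are DE, and otherwise the 5 highest and 5 lowest whose higher group has a mean NRC of 100 or more, and other genes are marked as named after their values were seen. Some genes that this rule names are not reported here. Sequences are not given here.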

Additional observations from a re-analysis of the deposited data

Results flagged for a closer look

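In 3 of the 26 genes examined, LSD1 at passage 25 stood apart from the other 3 monoiPSC libraries by Dixon's test, with a gap over range above the critical 0.829 for 4 samples. These were ALDOA, with an NRC of 34336 (gap over range 0.870), PGK1, with 64288 (0.888), and ENO2, with 131 (0.910). Chance flags about 1 in 20 groups. The share of all tested genes flagged by this rule was not computed, and LSD1 passage 25 was the highest monoiPSC library for 31.1% of them.

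In 2 genes, every monoiPSC library of one strain lay above the neoSFs of that strain and every library of the other lay below. The change of PGD was 0.83 in FD2M1 and -0.15 in LSD1 on the log2 scale, and the difference of the changes, -0.98 (SE 0.27), did not pass in edgeR (adjusted p = 0.337). That of TIGAR was 0.21 in FD2M1 and -0.18 in LSD1, a difference of -0.39 (SE 0.35, edgeR adjusted p = 0.866). Each strain has 1 neoSF library, so these differences rest on that library.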

How the results depend on the processing

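Of the 11 DE genes, LDHB, PDK1, PDK2, SLC16A1, SLC16A3, SLC2A3 and TKT were DE under all 13 alternatives. The counts were 6 to 10 higher and 1 to 4 lower when single libraries were left out, and 14 higher and 1 lower with total count scaling. The replicate block on strain gave the same 8 higher and 3 lower genes, and over the further lists 42 DE genes in place of 41. Directions that turned were all of genes that were not DE. With total count scaling GPI was 0.23, ALDOA 0.43, PGAM1 0.20, PDK3 0.21 and TIGAR 0.51. PDHA1 was -0.0088 with RLE scaling, -0.0085 with DESeq2, -0.054 with limma and -0.032 to 0.12 without single libraries. ALDOA was -0.69 to 0.12 and TIGAR -0.25 to 0.29 without single libraries, and TIGAR was 0.013 with the replicate block. The log2 fold of the summed level was 1.46 on library totals, 0.85 on NRC and 0.95 on TMM-scaled values. Genes with few counts, SLC2A3 and FBP1 in neoSFs and ENO2 throughout, are limited by depth. The cause of the other changes was not tested.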
